A study of Homo sapiens with 9 samples.

Results

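Glutathione turnover and transsulfuration were described at the mRNA level through 9 genes chosen by name, CHAC1, CHAC2, CTH, CBS, GSS, GSR, GGCT, MAT2A and AHCY, out of 78894 genes in the deposited tables. Each of the 9 was listed once by name, and all 9 passed the filter on low counts that left 16908 genes for testing. The cells were Hap1, a human cell line of leukaemic origin with a nearly haploid genome. In all groups the endogenous SARS2 gene, which encodes mitochondrial seryl-tRNA synthetase, carried a deletion, and a doxycycline-inducible FLAG-tagged SARS2 copy was left off by 6 days of growth without doxycycline. The groups differed in a constitutively expressed myc-tagged SARS2 copy, a construct that the labels of all groups name SARS2+int14-myc and that carried R227Q, H448L or the wild-type sequence (WT), with 3 libraries each. The labels do not say whether a genotype was 1 clone or a pool of cells, nor whether libraries of a group were separate cultures. The p-values therefore reflect only how far these libraries vary, and that variation may be technical.

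Methionine is activated to S-adenosylmethionine, used for methylation, and returned to homocysteine in the methionine cycle. Homocysteine can leave this cycle through transsulfuration, in which it is joined to serine and cleaved to give cysteine. Cysteine limits the synthesis of glutathione, the main thiol antioxidant of the cell, and glutathione is in turn reduced after use or broken down in the cytosol. CHAC1, which starts that breakdown, is a known target of ATF4 and CHOP, transcription factors of the integrated stress response, and CTH has also been described as an ATF4 target.

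The libraries fell under separate codes in their column names, SDKYMR (R227Q 1, WT 1 and WT 2) and 4LJFHN (R227Q 2, R227Q 3, the H448L libraries and WT 3). The codes are taken here as submissions to the sequencing service, a reading that rests on the column names. Each comparison of genotypes was fitted with a submission term unless stated. Total counts ran from 9900892 to 12991050, so 1 count stood for 0.0770 to 0.101 CPM (counts divided by the library total and multiplied by 1000000). SARS2 was measured at 7.09 to 8.68 CPM in R227Q, 7.88 to 8.68 CPM in H448L and 6.20 to 8.54 CPM in WT, and did not pass the test in either variant (edgeR adjusted p = 0.375 and 0.286). These values do not tell the SARS2 copies apart, and SARS2 shares 15493 bases with AC011455.2 on the same strand (a mean of 31.5 counts) and 349 bases with MRPS12 on the opposite strand. Of 8 haematopoietic markers, PTPRC, CD34, SPI1, GATA1 and CD33 were under 1 CPM in every library. The fetal globin genes HBG1 and HBG2 were at 0 in the 3 SDKYMR libraries, where 3 counts would be 0.231 to 0.244 CPM, and at 12.997 to 19.9 and 46.1 to 67.2 CPM in the 6 libraries of 4LJFHN. The summed level of the 8 markers was 5.46 to 75.5 CPM in R227Q, 74.4 to 92.0 CPM in H448L and 5.51 to 73.8 CPM in WT. The sum of 6 fibroblast markers was 25.5 to 65.8 CPM in R227Q, 55.2 to 65.4 CPM in H448L and 19.6 to 52.5 CPM in WT, with DCN, LUM and PDGFRB under 1 CPM in every library. The sum of 5 epithelial markers was 84.8 to 92.2 CPM in R227Q, 79.2 to 89.8 CPM in H448L and 78.0 to 81.5 CPM in WT, with CDH1 and KRT19 under 1 CPM in every library.

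Of the 9 genes, CHAC1 and GSS rose in R227Q cells and CHAC1 rose in H448L cells, each against WT. CHAC1 encodes a gamma-glutamylcyclotransferase that cleaves cytosolic glutathione into 5-oxoproline and cysteinylglycine, and GSS encodes glutathione synthetase, which adds glycine in the last step of glutathione synthesis. CHAC1 was 1.84-fold higher in R227Q and 1.67-fold higher in H448L, and GSS was 1.26-fold higher in R227Q. CHAC2, CTH, CBS, GSR, GGCT, MAT2A and AHCY did not pass the test in either variant. The 2 of 9 genes called in R227Q, both higher, compare with 17.4% of all genes tested that were called and 7.5% that rose, and the 1 of 9 called in H448L with 7.97% and 2.97% (edgeR's quasi-likelihood F-test with Benjamini-Hochberg adjustment over all genes, at a threshold of 0.05). The 9 genes were chosen with earlier results of these data known, so these counts are descriptions. The median log2 fold change of the 9 genes was −0.04 in R227Q and 0.00 in H448L, against 0.00 and 0.01 over all genes tested. In these bulk libraries a change in the share of cells that express a gene and a change in RNA per cell cannot be told apart.

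**Figure D1:**
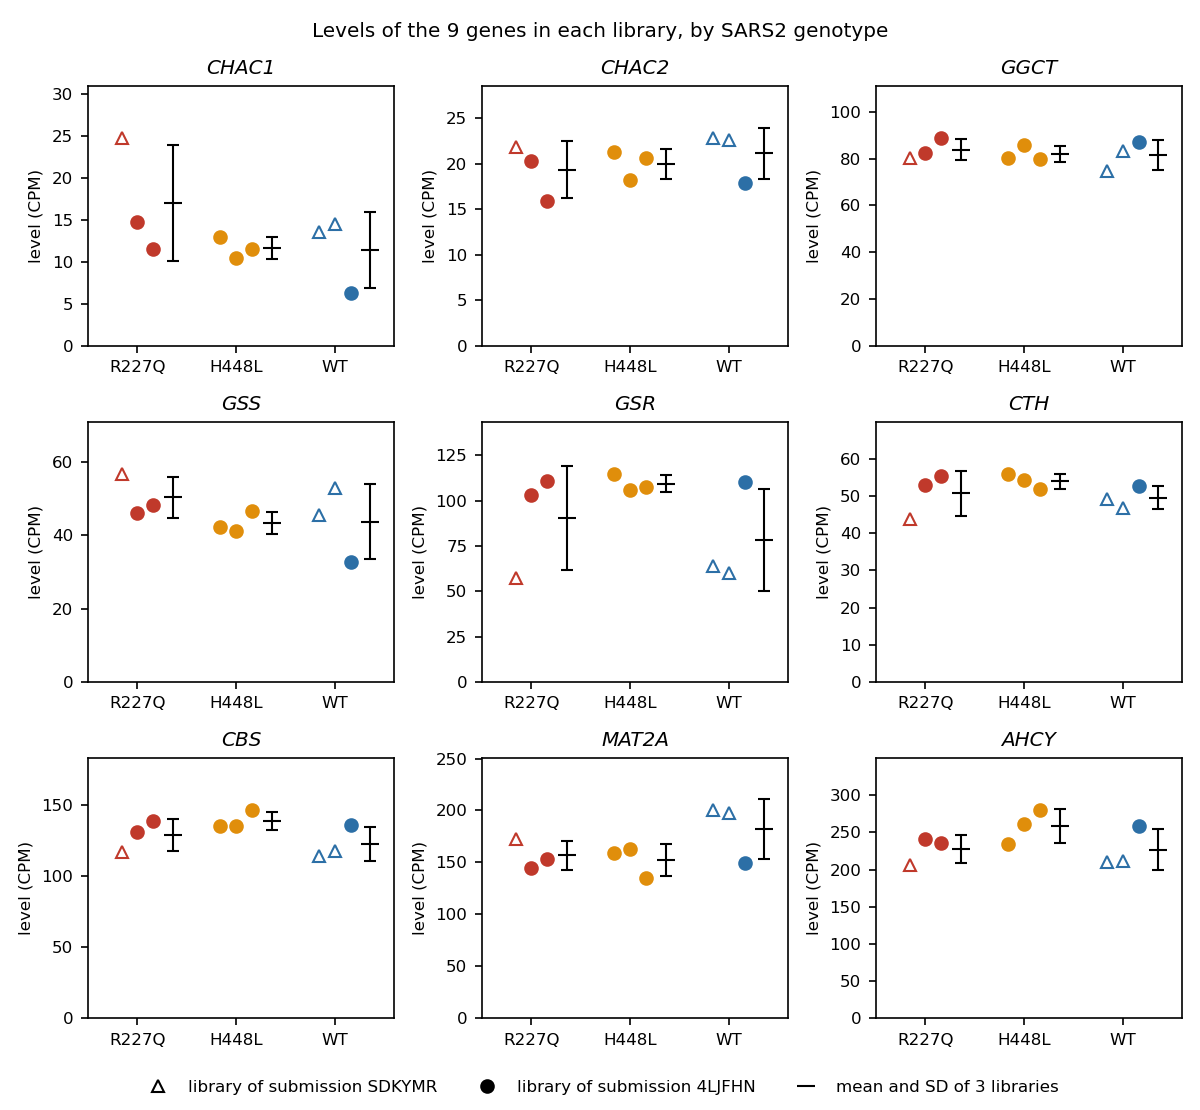
Levels of the 9 genes in CPM (linear axes from 0) in each of the 9 libraries, by SARS2 genotype; open triangles are libraries of submission SDKYMR, filled circles those of 4LJFHN, and bars are means ± SD of 3 libraries. CHAC1 was at 24.8 CPM in R227Q against 13.5 and 14.4 CPM in WT within SDKYMR, and at 10.4 to 14.7 CPM in the variants against 6.24 CPM in WT within 4LJFHN, while GSR separated by submission and not by genotype.

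Among the genes of glutathione breakdown, CHAC1 passed the test and CHAC2 and GGCT did not. CHAC1 (ENSG00000128965, GRCh38 chromosome 15, 40952962 to 40956519, plus strand) was the only 1 of the 9 genes called in both variants, so its upstream sequence is shown, beside that of its paralog CHAC2, which was called in neither. The sequences are the 250 bases before the RefSeq transcription start on the plus strand of GRCh38.p14, chr15:40953221-40953470 for CHAC1 and chr2:53767533-53767782 for the first listed start of CHAC2. The CHAC1 window lies within the GENCODE span given above, which begins at an earlier start. Capitals mark a match to TGATGNAA, the core of the C/EBP-ATF response element bound by ATF4 dimers, searched on both strands.
CHAC1: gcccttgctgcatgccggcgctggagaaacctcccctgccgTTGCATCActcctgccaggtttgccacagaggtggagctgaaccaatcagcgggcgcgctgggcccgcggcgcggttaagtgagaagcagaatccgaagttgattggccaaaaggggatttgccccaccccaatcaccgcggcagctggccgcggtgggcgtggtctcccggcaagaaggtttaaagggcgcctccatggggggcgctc
CHAC2: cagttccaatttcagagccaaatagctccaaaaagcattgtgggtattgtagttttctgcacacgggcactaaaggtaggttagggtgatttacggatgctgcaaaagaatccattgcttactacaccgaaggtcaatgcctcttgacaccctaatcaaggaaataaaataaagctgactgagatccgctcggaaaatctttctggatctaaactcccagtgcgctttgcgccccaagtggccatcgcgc
The CHAC1 window held 1 match, on the minus strand (TTGCATCA on the strand shown), 209 to 202 bases before the start, and 3.14% of 35116 human promoter windows of the same length held at least 1. The RefSeq promoter table matched 6 of the 9 genes (CHAC1, CHAC2, CTH, CBS, MAT2A and AHCY, 11 starts in all), and of these only CHAC1 held the element. A match to TGACNNNGC, the core of the antioxidant response element, also searched on both strands, was found only in the window of the first CBS start, 83 to 75 bases before it (10.9% of all windows). The matches of the motifs lay in different genes, so they could not overlap. A match is a description of the sequence, and binding was not measured.

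CHAC1 was measured at 24.8, 14.7 and 11.5 CPM in R227Q 1 to 3, at 13.001, 10.4 and 11.5 CPM in H448L 1 to 3, and at 13.5, 14.4 and 6.24 CPM in WT 1 to 3. The groups overlapped over all libraries. Within SDKYMR the R227Q library was above both WT libraries, and within 4LJFHN all 5 variant libraries were above WT 3, the sole WT library there. The means were 17.0 ± 6.92 CPM in R227Q, 11.6 ± 1.29 CPM in H448L and 11.4 ± 4.499 CPM in WT (SD, n = 3 each), a spread that holds the difference between submissions. With the submission in the model, the log2 fold change was 0.88 ± 0.11 (SE) in R227Q (edgeR adjusted p = 5.1e-07) and 0.74 ± 0.14 in H448L (edgeR adjusted p = 8.7e-04). Computed inside SDKYMR the R227Q difference came to 0.81, and inside 4LJFHN to 1.03. H448L, present only in 4LJFHN, was 0.86 above WT 3 there.

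The CHAC1 values rested on 69 to 304 counts per library, the lowest of them in WT 3. Without WT 3 the R227Q call was kept (log2 fold change 0.81, edgeR adjusted p = 1.7e-04) and the H448L call was lost (0.64, edgeR adjusted p = 0.064). That fit has no WT library in the submission of H448L. Without the submission term CHAC1 was called in neither variant (0.54 in R227Q and −0.04 in H448L, edgeR adjusted p = 0.435 and 0.947). Over the 18 alternatives for R227Q the CHAC1 call was kept in 17 (adjusted p from 3.7e-15 to 0.435), and for H448L in 15 of 17 that gave an adjusted p (1.7e-05 to 0.947). DESeq2 with its default filter gave no adjusted p for CHAC1 in H448L.

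The named genes whose submission-adjusted log2 CPM over the 9 libraries was most like that of CHAC1, among 11130 genes of at least 5 CPM, were HAX1, an anti-apoptotic protein of mitochondria, ARRB2, a beta-arrestin, and ATG16L2, a relative of the autophagy protein ATG16L1. Their Pearson correlations with CHAC1 were 0.986, 0.985 and 0.983. These are descriptions over 9 libraries that share the same genotype groups and the same adjustment.

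CHAC2 and GGCT encode the other cyclotransferases of the set. CHAC2 (ENSG00000143942, chromosome 2, 53767792 to 53775196, plus strand), which degrades glutathione more slowly than CHAC1, was at 21.9, 20.3 and 15.9 CPM in R227Q 1 to 3, at 21.3, 18.2 and 20.6 CPM in H448L 1 to 3, and at 22.9, 22.7 and 17.9 CPM in WT 1 to 3. The groups overlapped, and R227Q 3 and WT 3 were the lowest libraries of their groups. The log2 fold change was −0.04 in R227Q (95% interval −0.22 to 0.15, edgeR adjusted p = 0.831) and 0.12 in H448L (−0.11 to 0.34, adjusted p = 0.600). CHAC2 lies inside ASB3 on the opposite strand over its whole annotated length of 7405 bases, and no source used here says whether counting used strand, so its level is uncertain.

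GGCT (ENSG00000006625, chromosome 7, 30496621 to 30504844, minus strand), a cyclotransferase that acts on gamma-glutamyl amino acids other than glutathione, was at 80.2, 82.5 and 88.9 CPM in R227Q 1 to 3, at 80.5, 86.1 and 79.9 CPM in H448L 1 to 3, and at 74.6, 83.5 and 87.1 CPM in WT 1 to 3. All groups overlapped, and GGCT was the 1 gene of the 9 that did not differ between submissions by the test. Relative to WT, the log2 difference was −0.01 in R227Q (95% interval −0.12 to 0.10, edgeR adjusted p = 0.922) and −0.09 in H448L (−0.22 to 0.04, adjusted p = 0.435). Another annotated gene on the same strand, AC005154.5, shares 7768 bases with GGCT and had a mean of 25.0 counts per library.

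**Figure D2:**
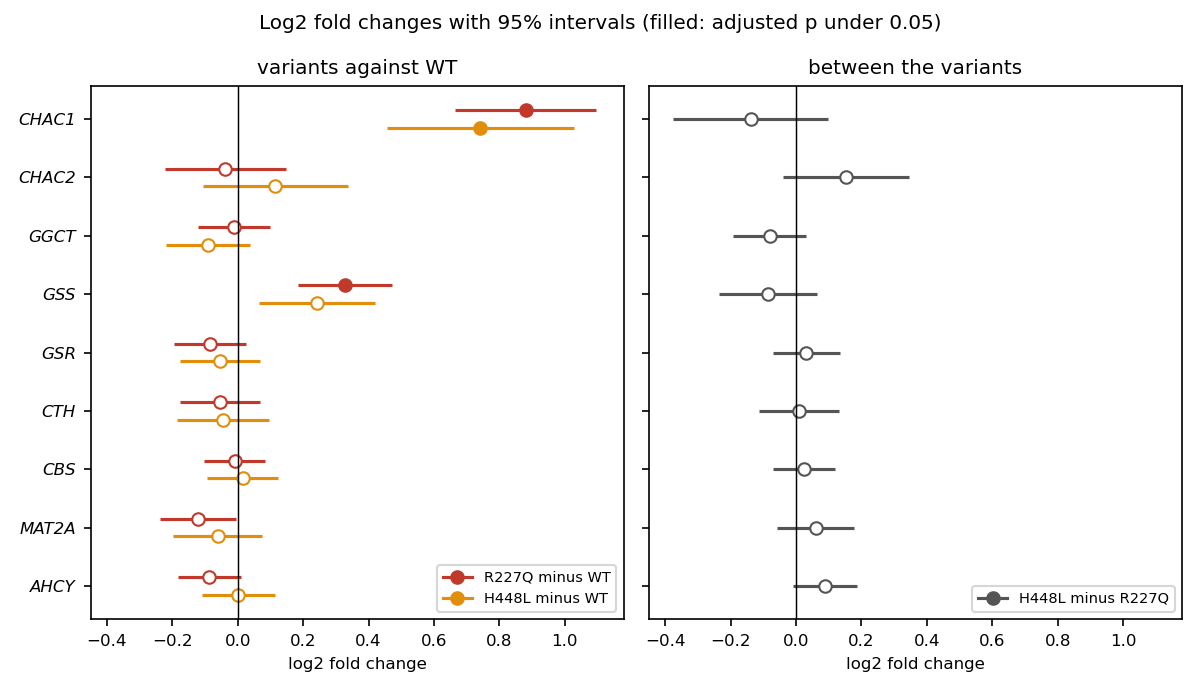
Log2 fold changes of the 9 genes with 95% intervals from the edgeR fit, for R227Q and H448L against WT on the left and for H448L against R227Q on the right; filled points passed the test at an adjusted p under 0.05. CHAC1 stood at 0.88 and 0.74 and GSS at 0.33 and 0.24 in R227Q and H448L, and each other value against WT lay between −0.12 and 0.12.

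Glutathione synthesis and reduction were represented by GSS and GSR. GSS (ENSG00000100983, chromosome 20, 34928433 to 34956027, minus strand) was at 56.7, 46.2 and 48.2 CPM in R227Q 1 to 3, at 42.3, 41.1 and 46.7 CPM in H448L 1 to 3, and at 45.6, 52.8 and 32.7 CPM in WT 1 to 3. Over all libraries the groups overlapped. Within SDKYMR the R227Q library was above both WT libraries, and within 4LJFHN WT 3 was below all 5 variant libraries. The log2 fold change was 0.33 ± 0.07 (SE) in R227Q (edgeR adjusted p = 0.00135). Inside SDKYMR it came to 0.20 and inside 4LJFHN to 0.52. In H448L it was 0.24 ± 0.09 and did not pass (95% interval 0.06 to 0.42, edgeR adjusted p = 0.0845).

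Both GSS values depended on WT 3, which had 362 counts, the fewest of the 9 libraries. Without WT 3 the R227Q call was lost (0.19, edgeR adjusted p = 0.219) and the H448L value was 0.05 (0.906). The H448L value passed the test without WT 2 (0.30, edgeR adjusted p = 0.0207). Without R227Q 1 the R227Q value was 0.52 (0.0019) and the H448L value passed (0.38, 0.0259). That fit leaves only WT libraries in SDKYMR, so both values rest on WT 3. The fit within 4LJFHN alone makes the same comparison and gave 0.52 and 0.38. The 18 alternatives count these fits separately. Over the 18 alternatives GSS was called in 16 for R227Q (adjusted p from 2.5e-05 to 0.613) and in 4 for H448L (0.0177 to 0.906).

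GSR (ENSG00000104687, chromosome 8, 30678061 to 30727999, minus strand), the NADPH-dependent reductase that regenerates glutathione from its oxidised form, was at 57.3, 102.9 and 110.8 CPM in R227Q 1 to 3, at 114.6, 106.0 and 107.7 CPM in H448L 1 to 3, and at 63.8, 60.3 and 110.4 CPM in WT 1 to 3. Its libraries separated by submission without overlap and overlapped between genotypes within 4LJFHN. The log2 fold change was −0.09 in R227Q (95% interval −0.19 to 0.02, edgeR adjusted p = 0.302) and −0.05 in H448L (−0.18 to 0.07, adjusted p = 0.663).

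The transsulfuration enzymes CBS and CTH did not pass the test in either variant. CTH, cystathionine gamma-lyase, which releases cysteine (ENSG00000116761, chromosome 1, 70411218 to 70439851, plus strand), was at 43.8, 53.1 and 55.3 CPM in R227Q 1 to 3, at 55.9, 54.3 and 51.8 CPM in H448L 1 to 3, and at 49.2, 46.7 and 52.8 CPM in WT 1 to 3. R227Q 1 was the lowest of all libraries. Within 4LJFHN the R227Q libraries were above WT 3, and WT 3 lay within the range of H448L. On the log2 scale the R227Q difference was −0.14 inside SDKYMR and 0.03 inside 4LJFHN. Relative to WT, the log2 difference was −0.05 in R227Q (95% interval −0.18 to 0.07, edgeR adjusted p = 0.606) and −0.04 in H448L (−0.19 to 0.10, adjusted p = 0.776).

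CBS, cystathionine beta-synthase, which joins homocysteine and serine (ENSG00000160200, chromosome 21, 43053191 to 43076943, minus strand), was at 116.6, 131.3 and 138.5 CPM in R227Q 1 to 3, at 135.2, 135.1 and 146.2 CPM in H448L 1 to 3, and at 113.8, 117.3 and 136.0 CPM in WT 1 to 3. The groups overlapped, and the log2 fold change was −0.01 in R227Q (95% interval −0.10 to 0.09, edgeR adjusted p = 0.924) and 0.02 in H448L (−0.09 to 0.12, adjusted p = 0.913). The level of CBS is uncertain, because a near-identical copy, CBSL (ENSG00000274276, chromosome 21, 6444869 to 6468040), is listed in the tables without a name and is classed there as an artifact. That entry held 47.7% to 48.3% of the counts summed over the pair in each of the 9 libraries, and CBS itself held 1432 to 1710.5 counts. With the counts of the pair summed, CBS again did not pass in either comparison with WT (log2 fold change −0.02 in R227Q and 0.01 in H448L, edgeR adjusted p = 0.849 and 0.939).

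In the methionine cycle, MAT2A and AHCY did not pass the test. MAT2A (ENSG00000168906, chromosome 2, 85539165 to 85545280, plus strand), the methionine adenosyltransferase that makes S-adenosylmethionine, was at 172.3, 144.7 and 152.9 CPM in R227Q 1 to 3, at 159.0, 163.2 and 135.1 CPM in H448L 1 to 3, and at 200.2, 197.8 and 149.3 CPM in WT 1 to 3. The R227Q library of SDKYMR was below both WT libraries there, and in 4LJFHN WT 3 lay within the range of the variant libraries. The log2 fold change was −0.12 in R227Q (95% interval −0.24 to −0.01, edgeR adjusted p = 0.146), or −0.22 inside SDKYMR and −0.01 inside 4LJFHN. In H448L it was −0.06 (−0.20 to 0.08, edgeR adjusted p = 0.659). Without H448L 3 the R227Q value passed (−0.12, edgeR adjusted p = 0.0488). MAT2A shares 558 bases with GGCX on the opposite strand.

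AHCY (ENSG00000101444, chromosome 20, 34280268 to 34311802, minus strand), which hydrolyses S-adenosylhomocysteine to homocysteine and adenosine, was at 206.0, 241.4 and 235.9 CPM in R227Q 1 to 3, at 234.6, 261.7 and 279.8 CPM in H448L 1 to 3, and at 209.8, 211.9 and 259.1 CPM in WT 1 to 3. R227Q lay below WT in each submission, and WT 3 stood between the lowest and the highest H448L library. Relative to WT, the log2 difference was −0.09 in R227Q (95% interval −0.18 to 0.01, edgeR adjusted p = 0.224) and 0.00 in H448L (−0.11 to 0.11, adjusted p = 0.989).

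The direct comparison of H448L with R227Q tested whether the variants differed from each other. None of the 9 genes passed (edgeR adjusted p from 0.515 to 0.979, 0 of 9 at an unadjusted p under 0.05), and 0.207% of all genes tested were called (0.0828% of all genes as higher in H448L). DESeq2 called 0 as well, but gave an adjusted p for only 2 of the 9, MAT2A and AHCY. H448L minus R227Q was −0.14 for CHAC1 (95% interval −0.38 to 0.10), −0.09 for GSS (−0.24 to 0.06), 0.15 for CHAC2 (−0.04 to 0.35) and 0.09 for AHCY (−0.01 to 0.19). The intervals of CTH, CBS, GSR, GGCT and MAT2A lay between −0.19 and 0.18. The GSS call in R227Q and its absence in H448L are therefore not shown to differ.

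Most of the 9 genes differed between the submissions. With the genotype in the model, 8 of the 9 genes differed between submissions, against 43.8% of all genes tested (edgeR adjusted p under 0.05). CHAC1 was 2.07-fold higher in SDKYMR than in 4LJFHN (log2 difference 1.05 ± 0.11, edgeR adjusted p = 2.1e-09), GSS 1.37-fold, CHAC2 and MAT2A 1.29-fold each. GSR was 1.76-fold higher in 4LJFHN than in SDKYMR (SDKYMR minus 4LJFHN −0.81 ± 0.05, edgeR adjusted p = 2.1e-13), AHCY 1.15-fold, and CTH and CBS 1.13-fold each. The haematopoietic markers HBG1 and HBG2 also differed between submissions. So did the fibroblast markers COL1A2 (5.345 to 10.2 CPM in 4LJFHN and 0.155 to 0.385 CPM in SDKYMR) and COL1A1 (42.9 to 55.0 and 18.4 to 22.8 CPM). The part of these 4 markers in the differences of the 9 genes was not tested.

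Whether the R227Q difference itself differed between submissions was tested with 1 mean per genotype and submission. Of 16908 genes, 0 passed (edgeR adjusted p under 0.05, 0% of genes; 736 at an unadjusted p under 0.05, and 0 by DESeq2). For CHAC1 the R227Q difference in 4LJFHN exceeded that in SDKYMR by 0.24 (95% interval −0.25 to 0.73), and for GSS by 0.33 (0.05 to 0.60, edgeR adjusted p = 0.999).

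**Figure D3:**
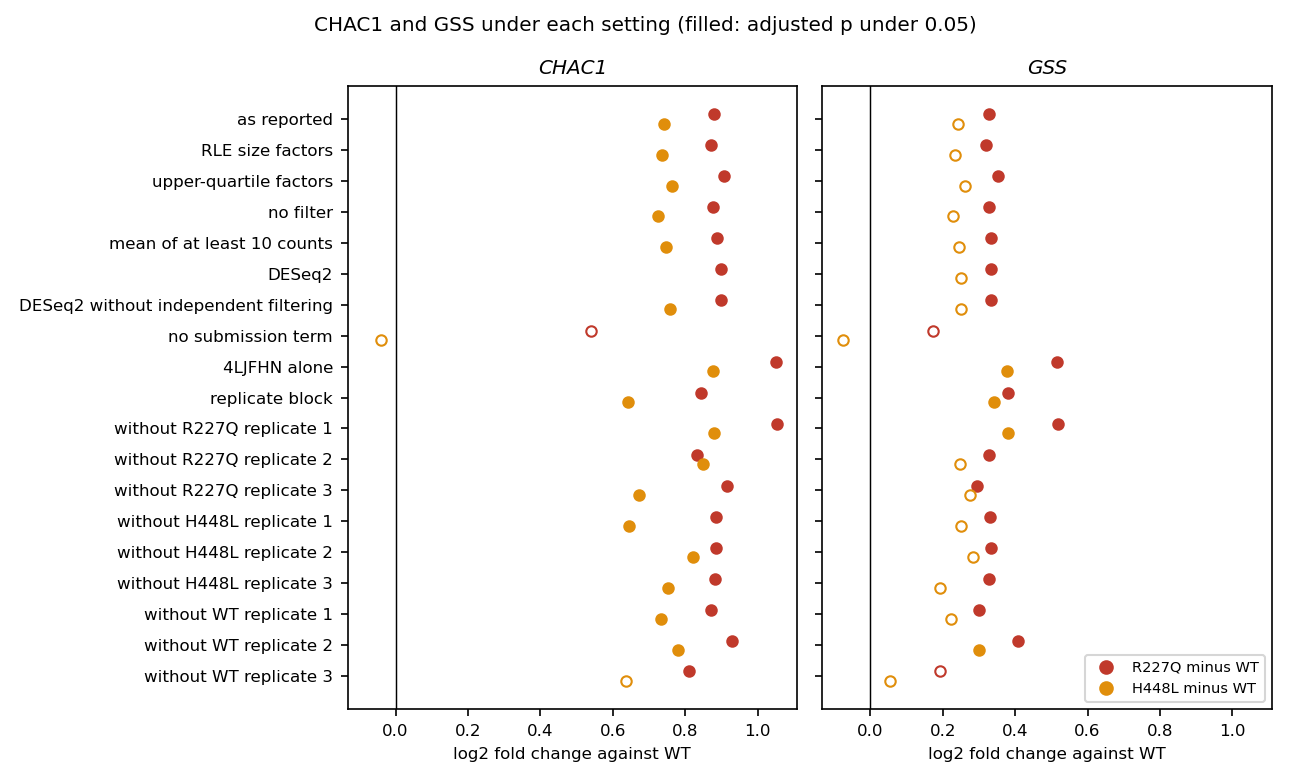
Log2 fold change against WT of CHAC1 (left) and GSS (right) in R227Q and H448L as reported and under each alternative setting; filled points passed at an adjusted p under 0.05, and DESeq2 gave no adjusted p for CHAC1 in H448L. CHAC1 in R227Q was called in every setting shown except the fit with no submission term (0.54), and GSS in R227Q lost its call in that fit (0.17) and without WT replicate 3 (0.19).

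Other genes of the pathway were counted by list. The lists were chosen with earlier results of these data known, so their counts are descriptions and not independent evidence. Of 12 tested genes of cysteine supply and use, 6 rose and 6 did not pass in R227Q, against 7.5% of all genes tested that rose, with a median log2 fold change of 0.13 against 0.00 over all genes. They were SLC7A11 and SLC3A2, the subunits of the cystine-glutamate exchanger, SLC1A4 and SLC1A5, neutral amino acid transporters, and TST and ETHE1, mitochondrial enzymes that handle sulfide-derived sulfur. TST rose by 0.33 ± 0.06 (edgeR adjusted p = 2.1e-04), SLC3A2 by 0.18 ± 0.04 (0.00132) and ETHE1 by 0.27 ± 0.06 (0.00241). SLC7A11 (0.20, adjusted p = 0.0134), SLC1A4 (0.36, 0.030) and SLC1A5 (0.14, 0.0145) fall outside the rule for named genes and were chosen after their values were seen. DESeq2 called 4 of the 12 genes in R227Q, all higher, but not SLC7A11 (DESeq2 adjusted p = 0.107) or SLC1A4 (0.178).

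TST was at 47.4, 43.9 and 41.9 CPM in R227Q 1 to 3, at 37.4, 38.7 and 41.2 CPM in H448L 1 to 3, and at 37.6, 37.1 and 33.9 CPM in WT 1 to 3. All R227Q libraries were above all WT libraries. In H448L the list had 0 of 12 genes called by edgeR, against 7.97% of all genes tested. Before adjustment (p under 0.05) 4 genes of the list were higher and 1 gene was lower, where 3634 of all 16908 genes passed in either direction. The median of the list was 0.05 in H448L, against 0.01 over all genes. DESeq2 called 0 there among the 7 genes for which it gave an adjusted p, and SLC1A4 and CSAD, which passed before adjustment, were not among them. In H448L against R227Q edgeR called 0 of the 12, against 0.207% of all genes tested. Before adjustment (p under 0.05) 1 gene of the list was higher and 4 genes were lower, where 1838 of all 16908 genes passed in either direction. DESeq2, with an adjusted p for 3 of the 12, called SLC3A2 (−0.14, DESeq2 adjusted p = 0.0289). Without WT 3 the R227Q count was 1 of 12, TST, and within 4LJFHN alone it was 2. SLC7A11, SLC1A4 and SLC1A5 also lost their calls without R227Q 1 (0.15, 0.34 and 0.12). Leaving out WT 1 ended the calls of SLC7A11 (0.17) and SLC1A4 (0.28), R227Q 3 those of SLC1A4 (0.28) and SLC1A5 (0.12), and WT 2 that of SLC1A5 (0.12).

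**Figure D4:**
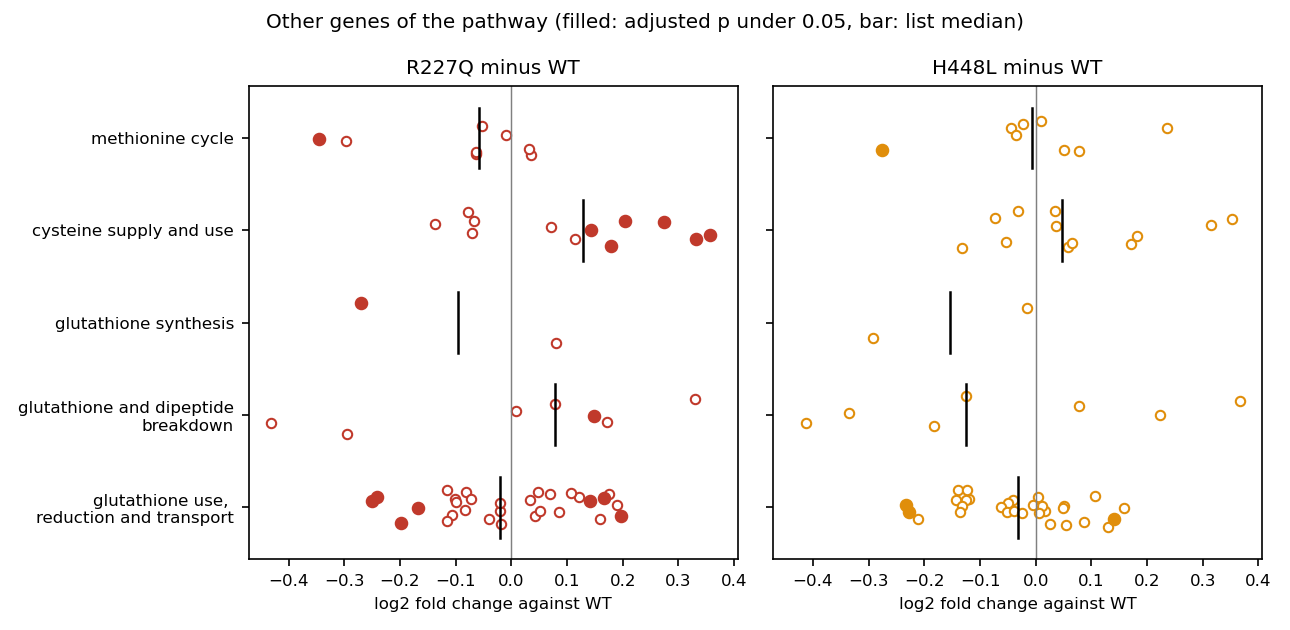
Log2 fold changes against WT of the tested genes of 5 pathway lists in R227Q (left) and H448L (right), 1 point per gene with vertical positions spread only for visibility; filled points passed at an adjusted p under 0.05 and bars are list medians. In the cysteine supply and use list 6 of 12 points are filled and positive in R227Q and 0 in H448L. Of all genes tested, 7.5% rose in R227Q and 2.97% in H448L, and the lists were chosen with earlier results of these data known.

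Glutamate-cysteine ligase, which makes the first and rate-limiting bond of glutathione, has a catalytic subunit, GCLC, and a modifier subunit, GCLM. GCLM was at 17.1, 19.2 and 21.3 CPM in R227Q 1 to 3, at 18.3, 21.9 and 18.8 CPM in H448L 1 to 3, and at 22.3, 21.996 and 22.6 CPM in WT 1 to 3. All 6 variant libraries were below the lowest of the WT libraries, though H448L 2 and WT 2 were close. GCLM fell by 0.27 on the log2 scale in R227Q (SE 0.09, edgeR adjusted p = 0.0274) and stood at −0.29 ± 0.10 in H448L, which did not pass (0.0722). The R227Q call was lost with DESeq2 (adjusted p = 0.132) and in 5 of 9 fits that left out 1 library, without R227Q 1 (−0.16), R227Q 2 (−0.25), WT 1 (−0.25), WT 2 (−0.26) or WT 3 (−0.39). The H448L value passed without H448L 2 (−0.37, edgeR adjusted p = 0.0352). GCLC stood at 0.08 ± 0.08 in R227Q and −0.02 ± 0.09 in H448L (edgeR adjusted p = 0.526 and 0.947).

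Among 8 tested genes of the methionine cycle, 1 fell in each variant and 7 did not pass, against 9.91% of all genes that fell in R227Q and 4.99% in H448L. The gene was ADK, adenosine kinase, which removes the adenosine that AHCY releases. It was at 32.97, 31.5 and 34.6 CPM in R227Q 1 to 3, at 36.3, 35.8 and 36.3 CPM in H448L 1 to 3, and at 39.8, 36.7 and 45.3 CPM in WT 1 to 3. Every variant library was below every WT library. ADK fell by 0.35 on the log2 scale in R227Q (SE 0.07, edgeR adjusted p = 5.0e-04) and by 0.28 in H448L (SE 0.08, adjusted p = 0.027), and neither passed once WT 3 was left out (−0.23 and −0.11, edgeR adjusted p = 0.168 and 0.767). The H448L call was also lost without H448L 2 (−0.27, edgeR adjusted p = 0.0737) and with DESeq2 (adjusted p = 0.0828).

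Of 7 tested genes of glutathione and dipeptide breakdown, LAP3, a leucine aminopeptidase that can cleave cysteinylglycine, rose in R227Q (0.15 ± 0.05, edgeR adjusted p = 0.0231) and 6 did not pass, against 7.5% of all genes tested that rose. Its call was lost without R227Q 1 (0.16), R227Q 2 (0.14), WT 1 (0.14) or WT 3 (0.14), and with DESeq2 (adjusted p = 0.107). In H448L edgeR called 0 of the 7, against 2.97% of all genes that rose. At an unadjusted p under 0.05, 2 of the 7 were higher, where 3634 of all 16908 genes passed in either direction. DESeq2 also called 0, but gave an adjusted p for only 3 of the 7.

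Of 30 tested genes of glutathione use, reduction and transport, 3 rose, 4 fell and 23 did not pass in R227Q, and 1 rose, 2 fell and 27 did not pass in H448L, with medians of −0.02 and −0.03. Over all genes tested, 7.5% rose and 9.91% fell in R227Q, and 2.97% rose and 4.99% fell in H448L, so the counts of this list are near the background. GLRX5, a mitochondrial glutaredoxin needed for iron-sulfur cluster transfer, was at 211.0, 204.0 and 205.8 CPM in R227Q 1 to 3, at 210.9, 209.3 and 204.7 CPM in H448L 1 to 3, and at 238.6, 251.4 and 243.0 CPM in WT 1 to 3. All variant libraries were below all WT libraries. GLRX5 fell by 0.24 on the log2 scale in R227Q (SE 0.04, edgeR adjusted p = 6.6e-05) and by 0.23 in H448L (SE 0.05, 0.00144), and the H448L call was lost without WT 3 (−0.22, 0.159).

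GPX7, a peroxidase of the endoplasmic reticulum, fell by 0.25 in R227Q and 0.23 in H448L on the log2 scale (edgeR adjusted p = 0.00242 and 0.0297), and GSTP1, a cytosolic glutathione transferase, rose by 0.17 and 0.14 (0.00187 and 0.0387). In R227Q both calls were lost without R227Q 1 (−0.20 and 0.10). In H448L the GPX7 call was lost in 6 of 9 and the GSTP1 call in 8 of 9 fits that left out 1 library. DESeq2 did not call GPX7 in H448L (DESeq2 adjusted p = 0.0831). The mean of GPX7 was 50.6 CPM in H448L and 50.3 CPM in WT, and without the submission term its H448L value was −0.04. The other genes of the list called in R227Q, named after their values were seen, were NNT (0.20) and GSTO1 (0.14), which rose, and GLO1 (−0.17) and MGST2 (−0.20), which fell. NNT, GLO1 and GSTO1 lost their calls without R227Q 1 (0.15, −0.16 and 0.06), GLO1 and MGST2 without WT 3 (−0.18 and −0.13), and GSTO1 without R227Q 3, WT 1 or WT 2 (0.14, 0.11 and 0.15). Without the submission term GSTO1 stood at −0.09 in R227Q. DESeq2 called 1 gene of the list higher and 3 lower in R227Q. NNT (DESeq2 adjusted p = 0.0532), GSTO1 (0.154) and MGST2 (0.0682) were not among them.

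Beside these calls, some markers of other cell types differed between R227Q and WT. Of 9 tested haematopoietic, epithelial and fibroblast markers, KRT18 rose by 0.15, COL1A1 by 0.29 and THY1 by 0.86 on the log2 scale (edgeR adjusted p = 0.0441, 0.00469 and 0.0404). Of all genes tested, 7.5% rose. DESeq2 also called COL1A1 in R227Q (DESeq2 adjusted p = 0.041), but not KRT18 (0.209). It gave no adjusted p for THY1, which was low, at 0.693 to 2.35 CPM over the libraries. In H448L edgeR called 0 of the 9 (0 at an unadjusted p under 0.05), against 7.97% of all genes called. DESeq2 also called 0 there, but gave an adjusted p for only 3 of the 9. The part of these markers in the pathway differences was not tested.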

How the data were processed

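Poly-A RNA of 9 Hap1 libraries was prepared and sequenced by a commercial service from lysates, per the labels' protocols. Per the file headers, the authors deposited an estimated count and a CPM value (counts scaled to a library total of 1000000) for each gene and library, in 1 table per submission. Per the submitters' processing notes, reads were placed on GRCh38. No source used here gives the aligner, the counter, the annotation release or the use of strand. With 92 spike-in entries kept in the totals, the deposited CPM matched the CPM computed from the counts to within 1e-05 CPM. The spike-in entries were then left out, and 70.4% to 72.5% of a library's counts above 0 were exactly whole numbers. Counts were rounded and tested with edgeR 4.0.16 (R 4.3.3, limma 3.58.1), using TMM factors (0.969 to 1.02), filterByExpr and the quasi-likelihood test on genotype plus submission over all 9 libraries, two-sided, with Benjamini-Hochberg adjustment over 16908 genes and a threshold of 0.05. The submission was read from the libraries' column names. DESeq2 1.42.0, other size factors, other filters, no submission term, 4LJFHN alone, a replicate block, each library left out and CBS summed with its copy were the alternatives. Overlaps and positions came from GENCODE 29, and promoters from RefSeq GRCh38.p14. The 9 genes and the lists were chosen with earlier results of these data known. Named were the 9 genes, SARS2, of each list at most the 3 called genes with the smallest p, both genes of a 2-gene list, and the 3 genes most correlated with a gene called in both variants.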

Additional observations from a re-analysis of the deposited data

How the results depend on the processing

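Without the submission term, 312 genes were called in R227Q, 147 in H448L and 1 in H448L against R227Q, with 0 of the 9 genes called in R227Q, 0 in H448L and 0 of the cysteine list in R227Q. That fit turned the sign of CHAC1 (−0.04), GSS (−0.076), CHAC2 (−0.139), CTH (0.07), GSR (0.438), ETHE1 (−0.057), GCLC (0.092) and GSTO1 (−0.358) in H448L, of CTH (0.007), CBS (0.047), GGCT (0.01), GSR (0.185) and GSTO1 (−0.089) in R227Q, and of MAT2A in H448L against R227Q (−0.069). Within 4LJFHN alone, 1138 genes were called in R227Q and 734 in H448L, 2 of the 9 in H448L and 2 of the cysteine list in R227Q, and signs turned for CTH (0.028 in R227Q, 0.01 in H448L, −0.018 between variants) and for MAT2A (0.009) and AHCY (−0.028) in H448L. DESeq2 called 1546, 733 and 54 genes in R227Q, H448L and between variants, and 0 of the 9 in H448L, where CHAC1 had no adjusted p. Without its independent filter, an alternative chosen after seeing the data, it called 1496, 634 and 12; AHCY in H448L was −0.006 in both, and −0.007 with RLE factors. The unfiltered fit called 122 genes between variants and turned CBS (−0.001) and AHCY (−0.014) in H448L and CTH between variants (−0.005). Upper-quartile factors turned CBS (0.014) and GGCT (0.012) in R227Q and GCLC (0.003) in H448L. Deviations of same-numbered libraries from the fit correlated at −0.022 to 0.043 in the pairs with H448L. Between R227Q and WT they correlated at −0.398 to 0.123. The fit ties the R227Q and WT deviations to each other, so these values cannot show whether such libraries deviated together. With the replicate block, 1055 genes were called in H448L, with 2 of the 9 genes and 1 of the cysteine list. CHAC1 then stood at 0.84 in R227Q and 0.64 in H448L. In that fit CTH between variants (−0.014), and GGCT (0.01) and CBS (0.017) in R227Q, changed sign. Leaving out 1 library gave 1093 to 3262 genes called in R227Q, 253 to 1378 in H448L and 4 to 91 between variants, 1 to 3 and 0 to 2 of the 9 genes, and 1 to 6 and 0 to 1 of the cysteine list. In these fits R227Q values ran from −0.102 to 0.021 (CHAC2), −0.141 to 0.029 (CTH), −0.028 to 0.015 (CBS) and −0.049 to 0.021 (GGCT). H448L values ran from −0.159 to 0.011 (CTH), −0.019 to 0.037 (CBS), −0.195 to 0.019 (MAT2A), −0.053 to 0.061 (AHCY), −0.002 to 0.107 (ETHE1) and −0.098 to 0.044 (GCLC). Values between variants ran from −0.242 to 0.016 (CHAC1), −0.028 to 0.057 (CTH), −0.014 to 0.054 (CBS) and −0.015 to 0.085 (GSR). The cause of these shifts was not tested. Of the 9 genes CHAC1 had the lowest count, 69 in WT 3.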
